A study of Mus musculus with 6 samples.

Results

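Chemokines are small secreted or membrane-bound proteins that direct the movement of leukocytes through receptors on the cell surface. Their family names, Ccl, Cxcl, Cx3cl and Xcl, follow the spacing of conserved cysteines, and 1 receptor often binds several ligands. In bone marrow and tumors, ligands of Cxcr2 attract neutrophils and polymorphonuclear myeloid-derived suppressor cells, ligands of Ccr2 attract monocytes, and ligands made by dendritic cells attract T cells. The expression of the genes for these ligands was examined in 3 kinds of bone marrow culture.

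The ligand genes were those whose name on the array starts with Ccl or Cxcl and a number, or is Cx3cl1 or Xcl1. The platelet chemokines Pf4 and Ppbp were left out. The rule took 50 of the 56605 probes and 36 genes. Of these, 23 genes had a probe well above background on both arrays of at least 1 group and were tested with 21862 genes in all. The other 13 were Ccl8, Ccl11, Ccl19, Ccl20, Ccl21a, Ccl26, Ccl28, Cxcl9, Cxcl13, Cxcl14, Cxcl15, Cxcl17 and Xcl1, which include both Ccr7 ligands on the array, the Ccr6 ligand Ccl20 and the Cxcr5 ligand Cxcl13. Of these 13, Ccl8 was well above background on replicate 2 of both MDSC groups, Ccl26 on DC replicate 2 and Cxcl14 on 6G- BM-MDSC replicate 1, and the rest on no array. Of the 23 genes tested, 20 were well above background on all 6 arrays.

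All cells came from the bone marrow of female C57BL/6J mice 6 to 8 weeks old and were cultured with GM-CSF, a growth factor of myeloid cells. MDSC (conv.), the conventional myeloid-derived suppressor cells, were whole bone marrow cells kept for 4 days with 40 ng/mL GM-CSF. 6G- BM-MDSC were kept under the same conditions but started from marrow depleted of Ly-6G+ cells, Ly-6G being a surface protein of neutrophils. DCs, the dendritic cells, were kept for 8 days with 20 ng/mL GM-CSF. Each group had 2 arrays, and a sort after culture is not stated for them. Without one, MDSC (conv.) hold both Ly-6G+ and Ly-6G- cells, and Ly-6G+ cells arise again in 6G- BM-MDSC. The dose, the time, the dish surface (treated for tissue culture in both MDSC groups, non-treated for DCs) and the row of the slide all differ between DCs and both MDSC groups, so that their parts in a difference from DCs cannot be told apart.

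A level is the log2 of a probe's processed intensity minus the 75th percentile of its array, so that 0 is the percentile itself (560.2 to 633.3 intensity units), and each gene was read from its brightest probe. Levels of different probes are not set against each other. Values are given for replicate 1 and then replicate 2, and differences are in log2 with the standard error (SE) and a p from limma, adjusted by Benjamini-Hochberg over all 21862 genes. A gene is said to be higher or lower only where the adjusted p is under 0.05. The labels do not say whether replicates were separate cultures or animals, so p measures only the spread between these samples, which may be technical. RNA was taken from whole cultures, where fewer cells of a type and less RNA per cell cannot be told apart.

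Against DCs, ligand genes differed in both directions. Cxcl2, Cxcl3 and Cxcl5, which encode ligands of Cxcr2, Ccl24 and Ccl3 were higher in both MDSC groups, while those for ligands of Ccr2, Ccr4, Cxcr6 and Cx3cr1 and for Ccl5 were mostly lower. In MDSC (conv.), 8 of 23 ligand genes were higher and 9 lower than in DCs, where 13.4% of all genes tested were higher and 15.8% lower. In 6G- BM-MDSC, 7 were higher and 9 lower, beside 15% and 17.8% of all genes. Both comparisons use the same 2 DC arrays and are not independent. The median difference of the 23 genes was -0.05 for MDSC (conv.) and -0.04 for 6G- BM-MDSC, near that of all genes (-0.03 and -0.04).

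Between both MDSC groups, 0 of 23 ligand genes passed the test with limma, beside 0.0137% of all genes (3 of 21862). At an unadjusted p under 0.05, 6G- BM-MDSC had 5 ligand genes higher and 0 lower, beside 4.18% and 6.61% of all genes.

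**Figure D1:**
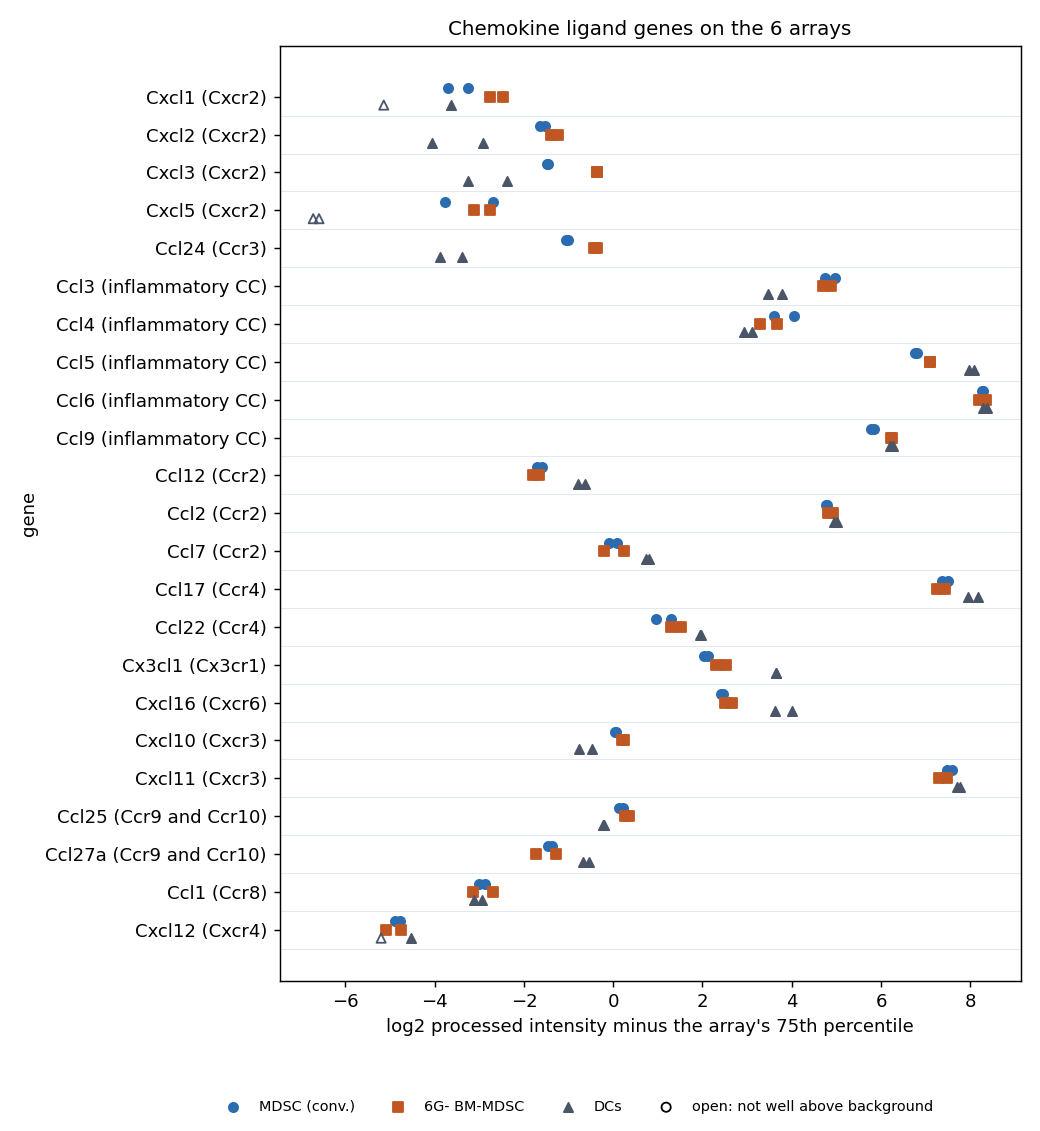
Level of each of the 23 tested ligand genes on each array (log2 processed intensity minus the array's 75th percentile), with the receptor or kind of ligand in brackets. Each point is 1 array, circles are MDSC (conv.), squares 6G- BM-MDSC and triangles DCs, and open points were not well above background. DC points lie to the left of the others for Cxcl2, Cxcl3, Cxcl5, Ccl24 and Ccl3, and to the right for Ccl5, Ccl12, Cx3cl1 and Cxcl16.

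The promoters of the Cxcr2 ligand genes are shown because Cxcl1, Cxcl2 and Cxcl3 had the same sign in each comparison. They were taken from RefSeq on GRCm38.p6 and cover the 170 bases before the start of the gene, with matches to the NF-kappaB consensus in capitals. Cxcl10, also above DCs in both MDSC groups, is shown beside them.
Cxcl1 (chr5:90891075-90891244, plus strand): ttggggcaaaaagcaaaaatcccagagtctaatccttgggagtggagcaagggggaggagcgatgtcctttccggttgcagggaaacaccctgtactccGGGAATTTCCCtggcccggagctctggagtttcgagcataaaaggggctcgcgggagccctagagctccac
Cxcl2 (chr5:90903729-90903898, plus strand): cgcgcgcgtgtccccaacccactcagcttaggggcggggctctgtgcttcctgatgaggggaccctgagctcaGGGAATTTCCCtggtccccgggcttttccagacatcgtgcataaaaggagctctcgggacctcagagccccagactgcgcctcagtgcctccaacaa
Cxcl3 (chr5:90785931-90786100, plus strand): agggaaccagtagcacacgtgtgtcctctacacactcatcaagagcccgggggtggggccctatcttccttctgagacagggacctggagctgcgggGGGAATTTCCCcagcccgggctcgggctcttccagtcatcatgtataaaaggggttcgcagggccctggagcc
Cxcl10 (chr5:92348890-92349059, minus strand): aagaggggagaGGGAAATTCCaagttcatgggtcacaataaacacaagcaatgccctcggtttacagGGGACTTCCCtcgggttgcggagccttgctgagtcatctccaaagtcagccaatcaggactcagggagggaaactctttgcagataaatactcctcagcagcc

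The promoters of Cxcl1, Cxcl2 and Cxcl3 held the same letters, GGGAATTTCCC, starting 71, 97 and 73 bases before the gene's start. They hold 2 overlapping matches each. In Cxcl10, matches started 159 and 103 bases before the start. Within 250 bases upstream on either strand, the consensus was found in 5 of the 15 tested ligand genes in the promoter table (these 4 and Ccl9) and in 3.9% of 32851 promoters. The motif was chosen with the values known, and a match is a description of the letters, not of binding. Of 3 other motifs searched in the same way, the interferon-stimulated response element was found among the 15 only in Cxcl10 (2.98% of all promoters), the STAT6 consensus only in Ccl17, which was lower in both MDSC groups (5.85% of all), and TGANTCA, the AP-1 consensus, in Ccl9, Ccl27a and Cxcl10 (6.75% of all). The tested genes Ccl2, Ccl4, Ccl5, Ccl7, Ccl24, Cxcl5, Cxcl11 and Cxcl16 have no entry in the promoter table.

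The ligands of Cxcr2 attract neutrophils. Of 5 genes on the array, 4 were tested, 3 exceeded DCs in both MDSC groups, and Cxcl1 did not pass in either. Cxcl5 was at -3.76 and -2.70 in MDSC (conv.), at -3.12 and -2.75 in 6G- BM-MDSC, and at -6.72 and -6.59 in DCs. It was not well above background on either DC array. A lower bound was therefore taken against the dimmest signal that counts as well above background in DCs. By this bound, Cxcl5 exceeded DCs by a factor of 2.98 or more for MDSC (conv.) and 3.66 or more for 6G- BM-MDSC. These bounds were not tested. The adjusted p from limma (0.00372 and 0.00288) belong to the differences without the bound (3.42 and 3.72). Every call of Cxcl5 given here is of such a difference, not of the bound. Cxcl5 entered the test only through both MDSC groups. With the filter requiring all 6 arrays it was not tested, and the count of higher ligand genes was 7 for MDSC (conv.) and 6 for 6G- BM-MDSC. Under another background correction (normexp) its differences were 1.07 and 1.21 (adjusted p = 0.00781 and 0.00434).

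Cxcl2 was at -1.64 and -1.52 in MDSC (conv.), at -1.39 and -1.24 in 6G- BM-MDSC, and at -4.06 and -2.91 in DCs. Every MDSC array was above both DC arrays, and the DC arrays were farther apart than those of any other group. The difference from DCs was 1.91 (SE 0.38, 3.75-fold, adjusted p = 0.0213) in MDSC (conv.) and 2.17 (SE 0.38, 4.50-fold, adjusted p = 0.0141) in 6G- BM-MDSC. Either call was lost when either array of the MDSC group compared was left out, with an adjusted p of up to 0.103 and 0.0683. Under normexp the differences were 1.16 and 1.41, both past the test (adjusted p = 0.00245 and 0.000995).

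Cxcl3 was at -1.45 and -1.48 in MDSC (conv.), at -0.36 and -0.36 in 6G- BM-MDSC, and at -3.25 and -2.37 in DCs. The groups formed 3 separate steps, with DCs lowest and 6G- BM-MDSC highest. The difference from DCs was 1.35 (SE 0.29, 2.54-fold, adjusted p = 0.0259) in MDSC (conv.) and 2.45 (SE 0.29, 5.46-fold, adjusted p = 0.00460) in 6G- BM-MDSC. The call in MDSC (conv.) was lost without any 1 of the 4 MDSC arrays (adjusted p of up to 0.108) and with only the arrays of those groups (0.0527), while that in 6G- BM-MDSC held without each array.

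Cxcl1 was at -3.71 and -3.26 in MDSC (conv.), at -2.75 and -2.46 in 6G- BM-MDSC, and at -5.14 and -3.63 in DCs, where only replicate 2 was well above background. The groups overlapped between MDSC (conv.) and DCs. The difference from DCs was 0.90 (adjusted p = 0.244) in MDSC (conv.) and 1.78 (adjusted p = 0.0534) in 6G- BM-MDSC. The size rested on the DC array kept: without DC replicate 2 these were 1.65 (adjusted p = 0.0257) and 2.53 (0.00987), both past the test, and without DC replicate 1 they were 0.15 (0.718) and 1.02 (0.0638). Under normexp they were 0.19 (adjusted p = 0.348) and 0.66 (0.0126). In each of Cxcl1, Cxcl2 and Cxcl3, DC replicate 2 was above DC replicate 1.

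Ccl24, also called eotaxin-2, attracts eosinophils through Ccr3, and it had the smallest adjusted p of all ligand genes in 6G- BM-MDSC against DCs. It was at -1.06 and -1.02 in MDSC (conv.), at -0.37 and -0.42 in 6G- BM-MDSC, and at -3.39 and -3.88 in DCs. As in Cxcl3, no 2 groups overlapped. The difference from DCs was 2.59 (SE 0.17, 6.03-fold, adjusted p = 0.00102) in MDSC (conv.) and 3.24 (SE 0.17, 9.45-fold, adjusted p = 0.000562) in 6G- BM-MDSC, and both calls held without each array. Under normexp the differences were 1.71 and 2.32, also past the test (adjusted p = 1.52e-05 and 4.45e-06). The other Ccr3 ligands, Ccl11 and Ccl26, were not tested.

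All 5 genes for inflammatory CC ligands of monocytes and T cells were tested, and they did not share a direction. Of the macrophage inflammatory proteins, Ccl3 was higher in both MDSC groups and Ccl4 in MDSC (conv.), while Ccl5 was lower in both and Ccl6 passed in neither. Ccl3 was at 4.74 and 4.97 in MDSC (conv.), at 4.70 and 4.88 in 6G- BM-MDSC, and at 3.47 and 3.78 in DCs. Both MDSC groups overlapped each other and lay above DCs. The difference was 1.23 (SE 0.15, adjusted p = 0.00608) in MDSC (conv.) and 1.16 (SE 0.15, adjusted p = 0.00661) in 6G- BM-MDSC, and both held without each array.

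Ccl4 was at 3.60 and 4.04 in MDSC (conv.), at 3.28 and 3.66 in 6G- BM-MDSC, and at 2.94 and 3.1 in DCs. Its difference from DCs passed in MDSC (conv.) (0.80, adjusted p = 0.0415) and not in 6G- BM-MDSC (0.45, adjusted p = 0.151), and the difference between both MDSC groups did not pass (-0.35, adjusted p = 0.589). The call in MDSC (conv.) was lost without MDSC (conv.) replicate 2 or either DC array (adjusted p of up to 0.150), with the mean of both Ccl4 probes (0.0693) and with no filter on dim probes (0.0592). Those probes share 46 bases and are not separate measurements.

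Ccl5, also called RANTES, attracts T cells and monocytes. It was at 6.80 and 6.77 in MDSC (conv.), at 7.10 and 7.10 in 6G- BM-MDSC, and at 7.96 and 8.08 in DCs. No 2 groups overlapped, with DCs highest and MDSC (conv.) lowest. Against DCs it was lower by a log2 difference of -1.24 (SE 0.08, adjusted p = 0.000928) in MDSC (conv.) and -0.92 (SE 0.08, adjusted p = 0.00196) in 6G- BM-MDSC, and both calls held without each array.

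Ccl6 and Ccl9 are mouse CC chemokines that bind Ccr1. Ccl9 was at 5.78 and 5.84 in MDSC (conv.), at 6.25 and 6.22 in 6G- BM-MDSC, and at 6.21 and 6.27 in DCs. It was lower than in DCs in MDSC (conv.) (-0.43, adjusted p = 0.0141), while 6G- BM-MDSC overlapped DCs (-0.01, adjusted p = 0.951). The call in MDSC (conv.) was lost without any 1 of its own or the DC arrays (adjusted p of up to 0.0731). Ccl6 was at 8.28 and 8.26 in MDSC (conv.), at 8.20 and 8.35 in 6G- BM-MDSC, and at 8.28 and 8.37 in DCs, and its groups overlapped (-0.05, adjusted p = 0.677, and -0.04, adjusted p = 0.730).

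Ligands of Ccr2 draw monocytes out of the bone marrow. Of 4 genes, 3 were tested, and Ccl7 and Ccl12 were lower in both MDSC groups than in DCs. Ccl12 was at -1.59 and -1.70 in MDSC (conv.), at -1.80 and -1.66 in 6G- BM-MDSC, and at -0.64 and -0.78 in DCs. Both MDSC groups overlapped each other and lay below DCs. The difference was -0.93 (SE 0.10, adjusted p = 0.00372) in MDSC (conv.) and -1.02 (SE 0.10, adjusted p = 0.00286) in 6G- BM-MDSC, and both held without each array.

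Ccl7 was at 0.08 and -0.10 in MDSC (conv.), at -0.21 and 0.24 in 6G- BM-MDSC, and at 0.80 and 0.74 in DCs. It lay below DCs on all 4 MDSC arrays, by -0.78 (adjusted p = 0.0283) and -0.75 (adjusted p = 0.0285). Neither call held without each array: that in MDSC (conv.) was lost without any 1 array of its own or DCs (adjusted p of up to 0.129), and that in 6G- BM-MDSC without any 1 array but its own replicate 2 (up to 0.109). Ccl2, the main monocyte attractant, was at 4.77 and 4.78 in MDSC (conv.), at 4.81 and 4.93 in 6G- BM-MDSC, and at 5.01 and 4.94 in DCs. Its differences of -0.20 (SE 0.08, adjusted p = 0.120) and -0.10 (SE 0.08, adjusted p = 0.367) did not pass.

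Ccl17 and Ccl22, which attract T helper and regulatory T cells through Ccr4, are known products of dendritic cells, and both were lower in both MDSC groups. Ccl17 was at 7.5 and 7.36 in MDSC (conv.), at 7.26 and 7.43 in 6G- BM-MDSC, and at 8.18 and 7.95 in DCs. Its difference was -0.63 (adjusted p = 0.0194) in MDSC (conv.) and -0.72 (adjusted p = 0.0130) in 6G- BM-MDSC. Both calls were lost without DC replicate 1, that in MDSC (conv.) also without either of its own arrays, and that in 6G- BM-MDSC without its replicate 1 (adjusted p of up to 0.0969 and 0.0545).

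Ccl22 was at 1.30 and 0.95 in MDSC (conv.), at 1.52 and 1.30 in 6G- BM-MDSC, and at 1.96 and 1.94 in DCs. All MDSC arrays were below DCs, by -0.82 (SE 0.15, adjusted p = 0.0162) in MDSC (conv.) and -0.53 (adjusted p = 0.0482) in 6G- BM-MDSC. The first call was lost without MDSC (conv.) replicate 2 or either DC array (adjusted p of up to 0.0699) and the second without any 1 array of its own or DCs (up to 0.177). With quantile normalization or no filter, the call in 6G- BM-MDSC was lost too.

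Cx3cl1 (fractalkine) and Cxcl16 are made as membrane proteins that can be shed, and both were lower in both MDSC groups. Cx3cl1 was at 2.13 and 2.04 in MDSC (conv.), at 2.53 and 2.30 in 6G- BM-MDSC, and at 3.64 and 3.64 in DCs. The groups formed 3 steps, with DCs highest. The difference was -1.56 (SE 0.10, adjusted p = 0.00107) in MDSC (conv.) and -1.22 (SE 0.10, adjusted p = 0.00194) in 6G- BM-MDSC, and both held without each array. With the mean of both Cx3cl1 probes the differences were -0.54 (adjusted p = 0.0898) and -0.55 (adjusted p = 0.0777). The dimmer probe was well above background on 3 arrays, all of MDSC groups, and was at -4.83 and -4.78 in MDSC (conv.), at -4.74 and -5.60 in 6G- BM-MDSC, and at -5.31 and -5.28 in DCs.

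Cxcl16, the ligand of Cxcr6, was at 2.46 and 2.41 in MDSC (conv.), at 2.66 and 2.51 in 6G- BM-MDSC, and at 3.63 and 4.0 in DCs. All MDSC arrays lay below both DC arrays. The difference was -1.38 (SE 0.14, adjusted p = 0.00357) in MDSC (conv.) and -1.23 (SE 0.14, adjusted p = 0.00475) in 6G- BM-MDSC, and both held without each array. Its other probe, 1 of 2 on the array, was at 2.38 to 2.49 in both MDSC groups and at 3.32 and 3.42 in DCs.

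Cxcl10 and Cxcl11 are listed as genes for ligands of Cxcr3, and Cxcl10 is induced by interferon and attracts activated T cells. Cxcl10 was at 0.05 and 0.07 in MDSC (conv.), at 0.24 and 0.20 in 6G- BM-MDSC, and at -0.47 and -0.76 in DCs. It was higher than in DCs by 0.67 (adjusted p = 0.0141) in MDSC (conv.) and 0.83 (adjusted p = 0.00743) in 6G- BM-MDSC. The first call was lost without either MDSC (conv.) array (adjusted p of up to 0.0746), and the second held without each array. Of 12 interferon response genes listed for comparison, 1 was higher and 7 were lower in MDSC (conv.) than in DCs, beside 13.4% and 15.8% of all genes. In 6G- BM-MDSC, 1 was higher and 5 were lower, beside 15% and 17.8%.

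Cxcl11 had a level of 7.59 and 7.48 in MDSC (conv.), at 7.47 and 7.30 in 6G- BM-MDSC, and at 7.71 and 7.76 in DCs on its brighter probe. It was lower in 6G- BM-MDSC than in DCs (-0.35, adjusted p = 0.0430) and did not pass in MDSC (conv.) (-0.20, adjusted p = 0.166). A stretch of that probe is shown because its capitals, 20 letters, also occur in 4 probes of other genes.
Cxcl11 probe, bases 10 to 39: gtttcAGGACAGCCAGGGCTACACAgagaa
Those 4 probes had a median level of 7.97 to 8.22 on the arrays, and whether they share RNA with the Cxcl11 probe was not tested. With runs on either strand counted, the brighter probe shares 20 bases with 8 other probes and the dimmer with 1, while on the same strand the dimmer shares them with 0. The dimmer Cxcl11 probe was at 2.61 and 2.20 in MDSC (conv.), at 2.45 and 0.29 in 6G- BM-MDSC, and at 2.53 and 2.35 in DCs, with a difference of -1.07 in 6G- BM-MDSC from DCs (adjusted p = 0.293). The call was lost without any 1 of the 6 arrays (adjusted p of up to 0.153), and without Cxcl11 the counts in 6G- BM-MDSC were 7 higher and 8 lower.

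Ccl25 attracts cells with Ccr9 to the thymus and gut, Ccl27a cells with Ccr10 to the skin, and Ccl1 cells with Ccr8, while Cxcl12 keeps blood precursors in the bone marrow through Cxcr4. Ccl25 was at 0.12 and 0.21 in MDSC (conv.), at 0.35 and 0.26 in 6G- BM-MDSC, and at -0.23 and -0.21 in DCs. It was higher than in DCs by 0.38 (adjusted p = 0.0237) and 0.52 (adjusted p = 0.00942). The call in MDSC (conv.) was lost without any 1 of its own or the DC arrays (adjusted p of up to 0.106) and with the mean of its probes, and that in 6G- BM-MDSC held without each array.

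Ccl27a was at -1.36 and -1.47 in MDSC (conv.), at -1.29 and -1.74 in 6G- BM-MDSC, and at -0.67 and -0.54 in DCs. It was lower than in DCs by a difference of -0.81 (adjusted p = 0.0227) in MDSC (conv.) and -0.91 (SE 0.16, adjusted p = 0.0157) in 6G- BM-MDSC. Both calls were lost without either DC array, and that in MDSC (conv.) also without either of its own (adjusted p of up to 0.109 and 0.0717).

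Neither Ccl1 nor Cxcl12 passed in any comparison. Ccl1 was at -2.88 and -3.00 in MDSC (conv.), at -2.70 and -3.15 in 6G- BM-MDSC, and at -3.11 and -2.95 in DCs. Cxcl12 was at -4.88 and -4.77 in MDSC (conv.), at -5.09 and -4.75 in 6G- BM-MDSC, and at -5.20 and -4.53 in DCs, where replicate 1 was not well above background. The groups overlapped for both genes, with differences from DCs of 0.09 and 0.10 for Ccl1 (adjusted p = 0.719 and 0.663) and 0.04 and -0.05 for Cxcl12 (adjusted p = 0.918 and 0.883).

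**Figure D2:**
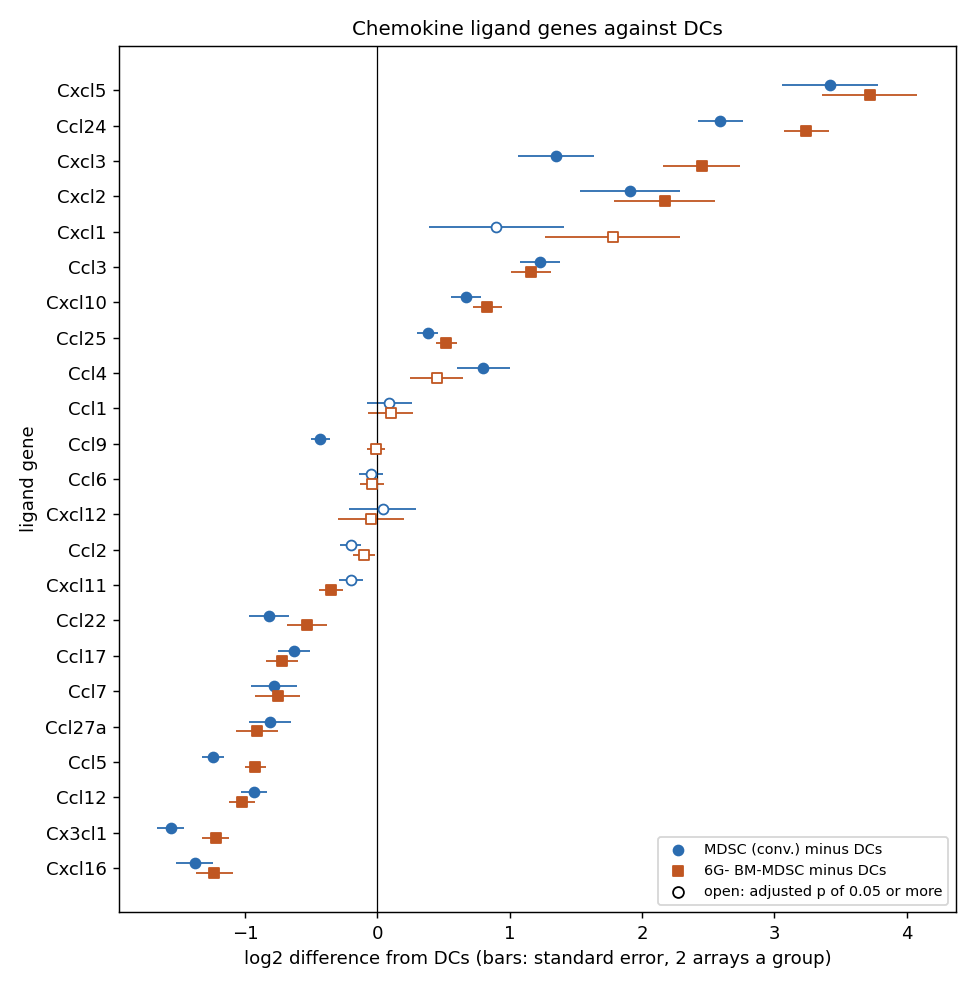
Log2 difference of each ligand gene from DCs, in MDSC (conv.) (circles) and 6G- BM-MDSC (squares), with the standard error as a bar. Filled points had an adjusted p under 0.05, and the DC arrays are shared by both. Cxcl5, Ccl24, Cxcl3 and Cxcl2 stand at the upper end, above 1 in both groups, and Cx3cl1 and Cxcl16 at the lower end, below -1 in both. For Cxcl5, whose DC arrays were not well above background, the plotted difference is no bound.

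In all, 7 of the 17 calls in MDSC (conv.) held without each of the 6 arrays in turn, namely Cxcl5, Ccl24 and Ccl3 higher and Ccl5, Ccl12, Cx3cl1 and Cxcl16 lower. In 6G- BM-MDSC, 10 of 16 held, namely Cxcl5, Ccl24, Cxcl3, Ccl3, Cxcl10 and Ccl25 higher and Ccl5, Ccl12, Cx3cl1 and Cxcl16 lower. The count in MDSC (conv.) fell to 9 without its replicate 1, 7 without its replicate 2 and 10 without DC replicate 1. The t-test of the methods, adjusted by Benjamini-Hochberg, called 0 ligand genes in both comparisons, beside 7 and 66 of the 21862 genes. At an unadjusted p under 0.05 it called 15 for MDSC (conv.) and 12 for 6G- BM-MDSC, beside 7073 and 7490 of the 21862 genes.

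The study asked how cultures depleted of Ly-6G+ cells differ from conventional ones. None of the 23 ligand genes passed that test, so the values here are given without calling a change. The 5 with the smallest p were Ccl9, Ccl5, Cxcl3, Ccl24 and Cx3cl1, and each was brighter on both arrays of 6G- BM-MDSC than on either of MDSC (conv.). Of all 23, 12 had both arrays above, where 22.3% of all genes did. Both were below in 1 (Cxcl11), beside 4768 of the 21862 genes. The median difference was 0.14, beside 0.004 over all genes, with 16 values above 0 and 7 below. Over all genes, 11122 values were above 0 and 10740 below. Among the 16 were Ccl1, Ccl6 and Ccl7, with values of 0.01, 0.01 and 0.03.

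Ccl9 differed by 0.42 (SE 0.07, adjusted p = 0.250) and Ccl5 by 0.32 (SE 0.08, adjusted p = 0.335). Cxcl3 differed by 1.1 (SE 0.29, 2.14-fold, adjusted p = 0.347), the largest value among the ligand genes. Ccl24 differed by 0.65 (SE 0.17, 1.57-fold, adjusted p = 0.349) and Cx3cl1 by 0.33 (SE 0.10, adjusted p = 0.396). For Cxcl3 and Ccl5 the arrays within each MDSC group lay close together and the DC arrays farther apart, and the SE pools the spread of all 3 groups. Over the alternatives run, the adjusted p of Cxcl3 ranged from 0.0925 to 0.672, that of Ccl24 from 0.0559 to 0.673, and that of Ccl9 from 0.0544 to 0.558.

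Of the 4 Cxcr2 ligand genes, all had a value above 0, from 0.26 in Cxcl2 and 0.30 in Cxcl5 to 0.88 in Cxcl1 and 1.1 in Cxcl3. In 3 of them both arrays were above those of MDSC (conv.), and Cxcl5 overlapped. Of the Ccr2 ligand genes, values lay between -0.09 and 0.10. Ccl3 and Ccl4 were the inflammatory CC ligand genes with values below 0, at -0.06 and -0.35.

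**Figure D3:**
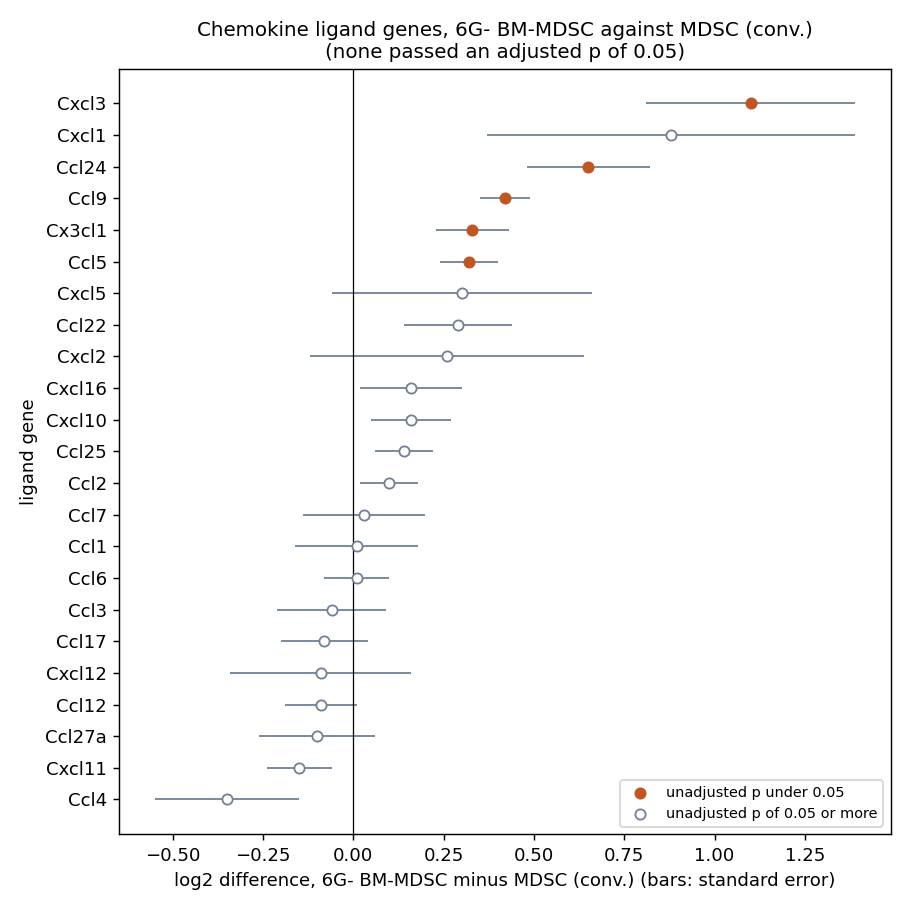
Log2 difference of each ligand gene between 6G- BM-MDSC and MDSC (conv.), with the standard error as a bar. Filled points had an unadjusted p under 0.05 and none passed after adjustment. Cxcl3 (1.1) and Cxcl1 (0.88) stand farthest above 0, and Ccl4 (-0.35) farthest below.

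Many chemokine genes lie in clusters, and the arrays' own coordinates (mm9) place 26 of the 36 in 7 clusters. On chromosome 5, probes of Cxcl5, Cxcl3, Cxcl15, Cxcl1 and Cxcl2 lie in that order within 144.1 kb (chr5:91190490-91334593). Of the 4 tested genes there, Cxcl2, Cxcl3 and Cxcl5 were higher in both MDSC groups, and Cxcl1, which overlapped DCs in MDSC (conv.), passed in neither. On chromosome 8, Ccl22, Cx3cl1 and Ccl17 lie within 61.1 kb (chr8:97274709-97335829), and all were lower in both MDSC groups. The noncoding gene 1700121C10Rik, whose probe lies between Cx3cl1 and Ccl17, had values of 0.60 and 0.31 and did not pass (adjusted p = 0.192 and 0.455).

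Both chromosome 11 clusters were mixed. From Ccl5 through Ccl9, Ccl6 and Ccl3 to Ccl4 (chr11:83339296-83478111, 138.8 kb), Ccl5 at one end was lower than in DCs and Ccl3 near the other was higher, by differences of -1.24 and 1.23 in MDSC (conv.). Between Ccl6 and Ccl3 lie E230016K23Rik, which was lower in both MDSC groups (-1.21 and -0.84, adjusted p = 0.0159 and 0.0394), and the probe named ENSMUST00000117199, also lower (-1.55 and -1.31, adjusted p = 0.00163 and 0.00248). That probe, 119.8 kb from the Ccl5 probe, is next to the Ccl3 probe at 122.1 kb, and their differences have opposite signs. From Ccl2 through Ccl7, Ccl11, Ccl12 and Ccl8 to Ccl1 (chr11:81850650-81990510, 139.9 kb), Ccl7 and Ccl12 were lower and Ccl2 and Ccl1 did not pass. Genes of a cluster are not independent, and no test of their order was made.

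**Figure D4:**
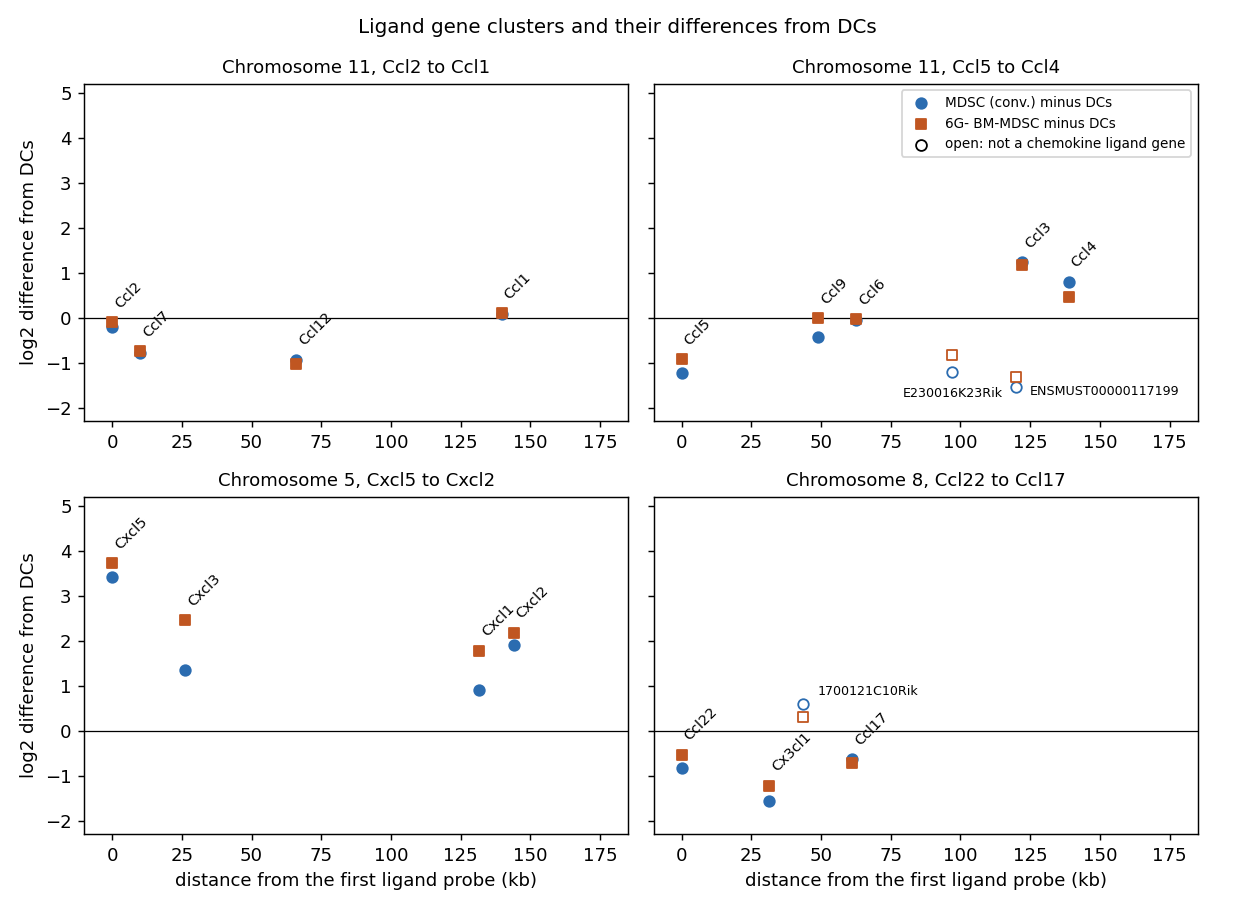
Log2 difference from DCs of the tested genes in 4 ligand clusters, against the distance in kb from the first ligand probe of the cluster. Circles are MDSC (conv.), squares 6G- BM-MDSC, and open points are genes that are not chemokine ligands. The cluster from Cxcl5 to Cxcl2 lies wholly above 0, the ligand genes from Ccl22 to Ccl17 wholly below, and both chromosome 11 clusters hold both signs.

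Of 23 chemokine receptor genes, 18 were tested. Of all genes tested, 13.4% were higher and 15.8% lower in MDSC (conv.) than in DCs, and 15% and 17.8% in 6G- BM-MDSC. Of the receptor genes, 7 were higher and 2 lower than in DCs for MDSC (conv.). For 6G- BM-MDSC, 9 were higher and 2 lower. Among the higher genes, Ccr10, Cxcr1 and Cxcr3 were not well above background on either DC array. These entered the test only through MDSC groups. With the filter requiring all 6 arrays, the count of higher receptor genes was 4 for MDSC (conv.) and 5 for 6G- BM-MDSC. The count of lower ones stayed at 2 for each group. Cxcr2, the receptor of Cxcl1, Cxcl2, Cxcl3 and Cxcl5, was at 2.0 and 2.12 in MDSC (conv.), at 1.36 and 1.33 in 6G- BM-MDSC, and at -0.85 and -0.99 in DCs. It differed from DCs by 2.98 (SE 0.09, adjusted p = 0.000207) and 2.27 (SE 0.09, adjusted p = 0.000300). Cxcr2 and 3 of its ligands were thus higher in MDSC cultures than in DCs.

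Ccr4, the receptor of Ccl17 and Ccl22, was at -1.73 and -2.69 in MDSC (conv.), at -2.25 and -2.20 in 6G- BM-MDSC, and at -4.64 and -4.42 in DCs, where only replicate 2 was well above background. It was higher than in DCs by 2.32 (adjusted p = 0.00799) and 2.30 (adjusted p = 0.00764), opposite in sign to both of its ligands. Ccr10, a receptor of Ccl27a, was not well above background in DCs, and its level in MDSC (conv.) was at least 1.53-fold higher. Ccr10 entered the test only through MDSC (conv.). Its adjusted p from limma (0.0192) is that of the difference without the bound (2.62), and the bound was not tested. In 6G- BM-MDSC, 1 array was well above background, and no bound can be given. Cxcr1, likewise not well above background in DCs, had a level in 6G- BM-MDSC at least 1.17-fold higher. Cxcr1 entered the test only through 6G- BM-MDSC. Its adjusted p from limma (0.00485) is that of the difference without the bound (2.14).

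Lower in both MDSC groups were Ccr6, whose ligand Ccl20 was not tested (-1.44 and -1.54, adjusted p = 0.00286 and 0.00233), and Ccr7, which guides dendritic cells to lymph nodes (-0.73 and -0.55, adjusted p = 0.0162 and 0.0323). Ccr2 was at 3.40 and 3.22, 3.20 and 3.12, and 3.20 and 3.25 in the 3 groups and did not pass (0.08 and -0.06, adjusted p = 0.545 and 0.617).

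Between both MDSC groups, 0 receptor genes passed with limma, beside 0.0137% of all genes. The unadjusted p was under 0.05 for 2 higher and 2 lower receptor genes, beside 4.18% and 6.61% of all genes. Among them, chosen after their values were seen, were the receptors of Cxcl3 and Cx3cl1. Cxcr2 had a difference of -0.71 (SE 0.09, adjusted p = 0.214), which passed with an intensity-dependent prior variance (adjusted p = 0.0412). Cx3cr1 was at -0.71 and -0.40 in MDSC (conv.), at 0.77 and 0.88 in 6G- BM-MDSC, and at -1.76 and -0.73 in DCs, a difference of 1.38 (SE 0.35, adjusted p = 0.343).

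**Figure D5:**
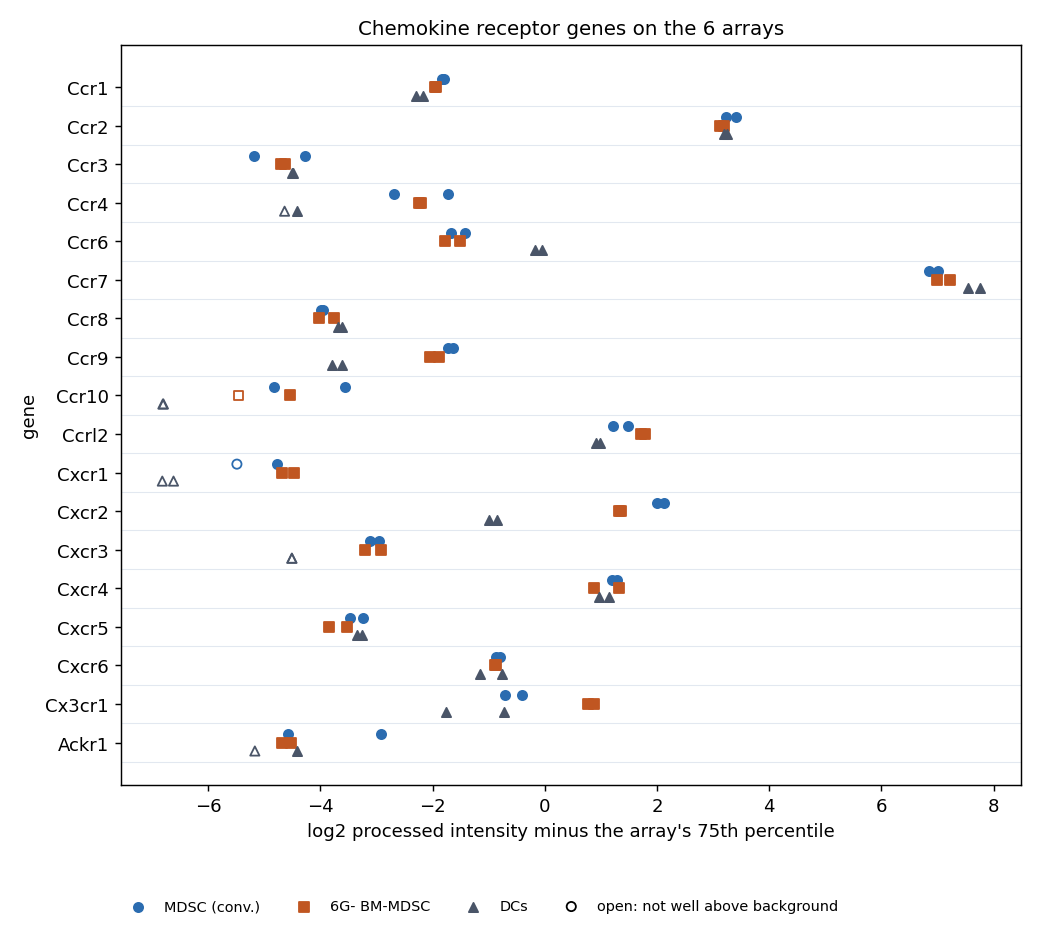
Level of each of the 18 tested receptor genes on each array, plotted as for the ligand genes, with open points not well above background. Cxcr2, Ccr4 and Ccr9 lie lower in DCs than on every MDSC array, and Ccr6 and Ccr7 lie higher in DCs.

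The cultures also differed in markers of cell types. For the counts against DCs below, the shares of all genes tested were 13.4% higher and 15.8% lower in MDSC (conv.). In 6G- BM-MDSC these shares were 15% and 17.8%. Ly6g, the gene of the protein used for depletion, was at 1.95 and 1.96 in MDSC (conv.), at 1.71 and 1.86 in 6G- BM-MDSC, and at -1.94 and -2.19 in DCs. Of 13 neutrophil markers, 12 were above DCs in both MDSC groups, and the log2 of their summed intensity was 10.40 to 10.72 on the MDSC arrays against 9.02 and 9.05 in DCs. All 7 markers of basophils and mast cells were higher (6.29 to 6.40 against 3.47 and 3.95). Of 7 eosinophil markers, 4 were above DCs in MDSC (conv.) and 3 were so in 6G- BM-MDSC, with 1 lower in each (7.45 to 7.67 against 6.57 and 6.88). Of 12 dendritic cell markers, 11 were lower in both MDSC groups (9.86 to 9.99 against 10.71 and 10.76), and the remaining 1, Flt3, was higher in 6G- BM-MDSC (0.50, adjusted p = 0.0155). Of 9 macrophage markers, 7 were lower in both (6.75 to 6.84 against 7.45 and 7.61). Of 7 monocyte markers, 3 were higher in both MDSC groups, and 1 was lower in MDSC (conv.) (8.73 to 8.90 against 7.75 and 7.98). Ccr2 is on the monocyte list and Ccr7 on the dendritic cell list. Of lymphocyte lists, 3 of 5 B cell markers were above DCs in both MDSC groups, as were 3 of 7 for T and NK cells (2 were lower for MDSC (conv.) and 1 for 6G- BM-MDSC), and of 6 stromal markers 2 were above and 0 lower. All markers of the lists from neutrophils to monocytes were well above background on both arrays of some group. Of the T and NK cell and stromal markers above DCs, Gzmb and Col1a1 were not well above background in DCs. Both entered the test only through the MDSC groups. The part of these cell types in the ligand differences from DCs was not tested. Between both MDSC groups, 0 markers of these lists passed, beside 3 of 21862 genes. The neutrophil list had 12 of 13 values below 0, beside 10740 of the 21862 genes.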

How the data were processed

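RNA of 6 samples was measured on one-colour Agilent arrays on 1 slide. The authors' image software, Agilent Feature Extraction (version 10.5.1.1 in the submitters' notes, 10.7.3.1 in the file headers), corrected each array for background and spatial trends. The deposited values are these processed intensities, on a linear scale and not scaled between arrays. In R 4.3.3, control probes and 103 to 146 marked spots per array were left out (0 of ligand probes), log2 was taken and each array's 75th percentile subtracted. A probe was tested if well above background on both arrays of at least 1 group (33484 of 56605), and a gene was read from its brightest probe. Accessions of 58.3% of probes matched RefSeq, which renamed 1535. On each array 55.6% to 59.9% of probes were well above background. The number of arrays limits the precision.

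Groups were compared with limma 3.58.1 (lmFit and eBayes) in 1 fit to all 6 arrays (3 residual degrees of freedom, prior 1.96), with Benjamini-Hochberg adjustment and a threshold of 0.05. For a group with no array well above background, a lower bound is given: the mean of the brighter group against the mean, per array, of the higher of the probe's own signal and the lowest signal called well above background. The limma fit was tried on simulated data for MDSC (conv.) against DCs over 21853 genes. The fit found 56 of 100 genes with a 2-fold change, 87 of 100 with a 4-fold change and 5 others. No other genes were changed, a far smaller share than was called in the real comparison, so these counts need not hold there. The members, gene lists, tests and alternatives were chosen with earlier results of these data known. All tested ligand genes are named, with SE for the 10 largest differences past the test against DCs (the 5 smallest p between both MDSC groups), and up to 3 of the largest receptor differences each way. One receptor gene was left out of all receptor counts, and receptor genes outside this rule have counts only. Cxcr3 is named only for how it entered the test. Cxcr2 and Cx3cr1 between both MDSC groups, Ccr2, and the other genes inside clusters were picked with their values known. The alternatives were another background correction (normexp, offset 50), quantile normalization, other filters and probe choices, the deposited value table, other fits, the methods' t-test, a 2-fold threshold, each array left out and, added later, counts without Cxcl11 and its dimmer probe.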

Additional observations from a re-analysis of the deposited data

How the results depend on the processing

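No ligand difference that passed the test turned its sign under any alternative. Over 23 genes, 458 values were recomputed per comparison, of which 67 lost a call in MDSC (conv.) against DCs and 59 in 6G- BM-MDSC against DCs, and 2 and 5 gained one. Leaving out an array leaves a lone array in 1 group, which is assumed to vary like the others. The methods' t-test, adjusted, called 0 ligand and 0 receptor genes against DCs. Of all 21862 genes it called 7 for MDSC (conv.) and 66 for 6G- BM-MDSC. Unadjusted, it called 5 ligand and 3 receptor genes between both MDSC groups, beside 1780 of all 21862 genes. A 2-fold threshold left 8 ligand genes in each comparison with DCs. The share of all genes at that threshold is not given, so these counts cannot be scaled. Receptor calls in 6G- BM-MDSC fell from 11 to 7 with the filter requiring all 6 arrays, and to 7 without 6G- BM-MDSC replicate 2, and an intensity-dependent prior variance called 1 receptor gene between both MDSC groups. Without 1 array each, ligand calls ranged from 7 to 16 in MDSC (conv.) and from 11 to 14 in 6G- BM-MDSC against DCs, and receptor calls from 7 to 9 in both. Under normexp the differences of Cxcl2, Cxcl5 and Cxcl1 from DCs moved by over 1.5 times, as given with each gene. That of Ccl24 did so in MDSC (conv.) (2.59 to 1.71) and by less in 6G- BM-MDSC (3.24 to 2.32). Counts were within 1.5 times under normexp, quantile normalization, no filter, averaged probes, probes in place of genes, marked spots kept, the deposited value table and the arrays of both groups alone.

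The replicate numbers are not shown to pair the samples: deviations of same-numbered arrays correlated at 0.0416 to 0.125. With the replicate block, 17 ligand genes were called in each comparison with DCs and 0 between both MDSC groups. The block added Cxcl1 (adjusted p = 0.0292) and Ccl4 (0.0416) in 6G- BM-MDSC and dropped Cxcl11 (0.0534). Receptor calls were 10 for MDSC (conv.) and 9 for 6G- BM-MDSC.

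The sign turned only in differences that had not passed, and the cause was not tested. Under normexp these were Cxcl12 (0.03 between both MDSC groups and -0.14 in MDSC (conv.) against DCs), Ccl1 (-0.04 in MDSC (conv.) against DCs) and Ccl2 (0 in 6G- BM-MDSC against DCs). Under quantile normalization they were, against DCs, Ccl6 (0.09 for MDSC (conv.) and 0.14 for 6G- BM-MDSC), Ccl9 (0.08 in 6G- BM-MDSC) and Cxcl12 (0.05 in 6G- BM-MDSC). With probes averaged per gene they were, between both MDSC groups, Cx3cl1 (-0.02), Ccl27a (0.02) and Ccl25 (0). Leaving out each array in turn, the difference between both MDSC groups ranged from -0.21 to 0.24 for Ccl1, -0.17 to 0 for Ccl17, -0.32 to 0.12 for Ccl27a, -0.18 to 0.05 for Ccl3, -0.06 to 0.08 for Ccl6, -0.2 to 0.25 for Ccl7, -0.27 to 0.08 for Cxcl12 and -0.23 to 0.82 for Cxcl5. That from DCs ranged in MDSC (conv.) from -0.3 to 0.38 for Cxcl12, and in 6G- BM-MDSC from -0.12 to 0.33 for Ccl1, -0.12 to 0.03 for Ccl6, -0.04 to 0.03 for Ccl9 and -0.39 to 0.28 for Cxcl12.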

Other observations

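The inflammatory genes listed for comparison were described over the same arrays. Of 12, 6 were higher and 2 lower in MDSC (conv.) than in DCs, beside 13.4% and 15.8% of all genes. In 6G- BM-MDSC, 8 were higher and 1 lower, beside 15% and 17.8%. Between both MDSC groups 0 passed with limma, beside 3 of 21862 genes, and the median difference was 0.285, beside 0.004 over all genes. At an unadjusted p under 0.05, 4 were higher and 0 lower, beside 4.18% and 6.61% of all genes. Tnf, named after its values were seen, was at 2.98 and 3.05 in MDSC (conv.), at 3.44 and 3.54 in 6G- BM-MDSC, and at 2.38 and 2.45 in DCs, a difference between both MDSC groups of 0.48 (adjusted p = 0.247). Il1a, likewise, was at -3.93 and -3.77, -2.79 and -2.69, and -4.61 and -4.41, a difference of 1.11 (adjusted p = 0.181). These genes lay in the same order of groups as Cxcl3 and Ccl24. Il12b ran the other way against DCs, at -2.57 and -2.06 in MDSC (conv.), at -1.99 and -1.66 in 6G- BM-MDSC, and at 0.64 and 0.72 in DCs (differences of -2.99 and -2.50, adjusted p = 0.00115 and 0.00178).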
